A study of Mus musculus with 4 samples.

Results

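The genes described here are 8 members of the ERBB signalling system, 4 ligands (Nrg1, Hbegf, Areg and Tgfa) and 4 receptors (Egfr, Erbb2, Erbb3 and Erbb4), measured in the epithelium and the mesenchyme of embryonic mouse salivary glands. They were chosen by gene symbol, with earlier results of these data known, and are 8 of the 27998 genes in the count tables. All 8 symbols were present, each on 1 row. Submandibular and parotid glands came from ICR mouse embryos at embryonic day 12, with no genetic change or treatment named in the labels. About 10 glands of each kind were separated into epithelium and mesenchyme with the enzyme Dispase II and dissociated in the cold. Each tissue of each gland then gave 1 droplet single-cell library (10x Chromium), so the 4 groups have 1 pooled library each and no replicate. The sex and the number of litters behind each pool are not given in the sources used here.

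With 1 library per group there is no test between groups, so no p-value is given. Levels are UMIs of a gene (unique molecular identifiers, 1 per captured RNA molecule) relative to all UMIs of the summed cells, as CPM, with exact 95% Poisson intervals. Ratios carry exact conditional binomial intervals and shares of cells carry Clopper-Pearson intervals. These intervals hold the error of counting molecules and nothing else, so spread between animals or dissections is not in them. Levels are compared between cells for 1 gene at a time, never between genes.

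ERBB receptors are cell-surface tyrosine kinases that work in pairs. EGFR binds epidermal growth factor relatives such as TGF-alpha, amphiregulin (Areg) and heparin-binding EGF (Hbegf), whereas neuregulins such as Nrg1 bind ERBB3 and ERBB4. ERBB2 binds no known soluble ligand and serves as the preferred partner of the other receptors, and ERBB3 has little kinase activity of its own and depends on such a partner. The ligands are made as membrane-bound precursors that are cut free by proteases, so they can act on the producing cell, on its neighbours or across a tissue border. In embryonic salivary gland culture, EGF family ligands and neuregulins are known to act on branching of the epithelium.

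Upstream sequence was matched from RefSeq (GRCm38.p6) for 5 of the 8 genes. Nrg1, Hbegf and Erbb3 were not matched. The 250 bases before the annotated start are shown for the ligand with the narrowest cluster pattern (Areg) and for the receptor whose tissue order differed between the glands (Egfr). Capitals mark matches to 3 motifs, each searched on both strands, with no overlap between matches. The GC box was searched as GGGCGG. The TATA box was searched as TATAAA. The cAMP response element was searched as TGACGTCA. Both sequences are on the plus strand, written 5′ to 3′, at chr5:91139349-91139598 for Areg and chr11:16751953-16752202 for Egfr.
Areg: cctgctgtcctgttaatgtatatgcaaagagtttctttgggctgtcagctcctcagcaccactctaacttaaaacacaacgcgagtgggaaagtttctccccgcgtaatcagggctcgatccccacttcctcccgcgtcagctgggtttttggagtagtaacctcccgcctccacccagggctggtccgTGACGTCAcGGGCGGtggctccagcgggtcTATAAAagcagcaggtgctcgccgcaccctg
Egfr: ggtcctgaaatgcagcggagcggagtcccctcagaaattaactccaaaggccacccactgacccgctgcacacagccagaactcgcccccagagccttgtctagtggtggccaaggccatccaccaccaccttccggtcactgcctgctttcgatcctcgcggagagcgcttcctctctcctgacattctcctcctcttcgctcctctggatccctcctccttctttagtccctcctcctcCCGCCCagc
The Areg window held 1 match of each motif, with the TATA box 31 to 26 bases before the start and the cAMP response element 61 to 54 bases before it. The Egfr window held 1 GC box, read on the minus strand, 9 to 4 bases before the start. Of 32851 annotated windows of this length, 32.7% held a GC box, 12.4% a TATA box and 1.55% a cAMP response element. A match is a run of letters and not a measured binding site. The genes themselves lie on chromosome 5 (Areg, 91139599 to 91148432, plus strand) and chromosome 11 (Egfr, 16752203 to 16918158, plus strand) in GENCODE vM21 on GRCm38. None of the 8 genes overlaps another counted gene on its own strand.

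The libraries held between 14004908 UMIs (parotid epithelium, 1996 barcodes) and 39621166 UMIs (submandibular epithelium, 3896 barcodes). After filtering, 3479 epithelial-like cells of the submandibular and 1854 of the parotid epithelium library were compared with 4225 and 3715 mesenchymal-like cells of the mesenchyme libraries. Classes were named from marker lists that hold no ERBB gene. Of the kept barcodes, 3479 of 3767 in submandibular and 1854 of 1854 in parotid epithelium were epithelial-like. In the submandibular and parotid mesenchyme libraries 4225 of 4842 and 3715 of 4421 were mesenchymal-like. The markers given next are on the naming lists, so their levels describe the classes and cannot check the tissue labels. The epithelial marker Epcam was at 661 and 477 CPM in the submandibular and parotid epithelial-like cells and at 14.1 and 1.93 CPM in the mesenchymal-like cells, and the collagen gene Col3a1 was at 0.109 and 4.94 CPM against 824 and 816 CPM. Of 14 epithelial markers, 2 were at 0 in each mesenchymal-like class (Esrp1 and Krt5 in the submandibular, Cdh1 and Krt19 in the parotid), and the rest summed to 677 and 190 CPM, most of it from Pitx1 (650 and 184 CPM). Of 12 mesenchymal markers, 1 (Prrx1) was at 0 in submandibular and none in parotid epithelial-like cells, with sums of 23.6 and 91.3 CPM. Between 38 and 69 barcodes per library were also found in another library, and 4 clusters had a median of under 1% mitochondrial UMIs. These were 136 cells of submandibular epithelium, left unnamed, 91 epithelial-like cells of parotid epithelium, and the 106 and 69 erythroid-like cells of the submandibular and parotid mesenchyme libraries. Without the shared barcodes, or without clusters of that kind, the counts of called genes given below were the same.

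Among the ligands, summed over each class, Nrg1 and Hbegf were higher in the mesenchyme of both glands, and Areg and Tgfa were sparse and mostly epithelial. Some submandibular epithelial clusters, described further on, held as much Nrg1 as the mesenchyme. Nrg1, which encodes the type I neuregulins among other isoforms, was at 1.79 CPM in submandibular epithelium (66 UMIs), 4.19 CPM in submandibular mesenchyme (102 UMIs), 0.811 CPM in parotid epithelium (11 UMIs) and 5.08 CPM in parotid mesenchyme (116 UMIs). Both mesenchymal classes were above both epithelial classes, with no overlap of the counting intervals. The mesenchyme held 2.34 times the epithelial level in the submandibular gland (1.70 to 3.24) and 6.27 times in the parotid (3.38 to 12.9). The 2 mesenchymal levels were not distinguishable (ratio 1.21, 0.921 to 1.598), while submandibular epithelium was 2.21 times above parotid epithelium (1.16 to 4.64) on few molecules.

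Hbegf, which also serves as a ligand while still anchored in the membrane, was at 2.58 CPM in submandibular epithelium (95 UMIs), 10.5 CPM in submandibular mesenchyme (256 UMIs), 3.54 CPM in parotid epithelium (48 UMIs) and 12.5 CPM in parotid mesenchyme (286 UMIs). Again both mesenchymal classes stood above both epithelial ones. The mesenchyme to epithelium ratio was 4.08 (3.21 to 5.21) in the submandibular and 3.54 (2.60 to 4.92) in the parotid gland. Within a tissue the glands were close: parotid over submandibular was 1.19 (1.00 to 1.42) in mesenchyme and 1.37 (0.948 to 1.96) in epithelium.

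Areg, the amphiregulin gene, was at 3.72 CPM in submandibular epithelium (137 UMIs), 0.0411 CPM in submandibular mesenchyme (1 UMI), 0.369 CPM in parotid epithelium (5 UMIs) and 0.131 CPM in parotid mesenchyme (3 UMIs). The submandibular epithelium alone stood out, at 10.1 times the parotid epithelium (4.22 to 31.6). Tgfa, another ligand of EGFR, gave 21, 1, 4 and 2 UMIs in the same order (0.571, 0.0411, 0.295 and 0.0876 CPM). The 4 classes stood in the same order as for Areg, but no neighbouring pair in that order had an interval that left out 1.

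**Figure D1:**
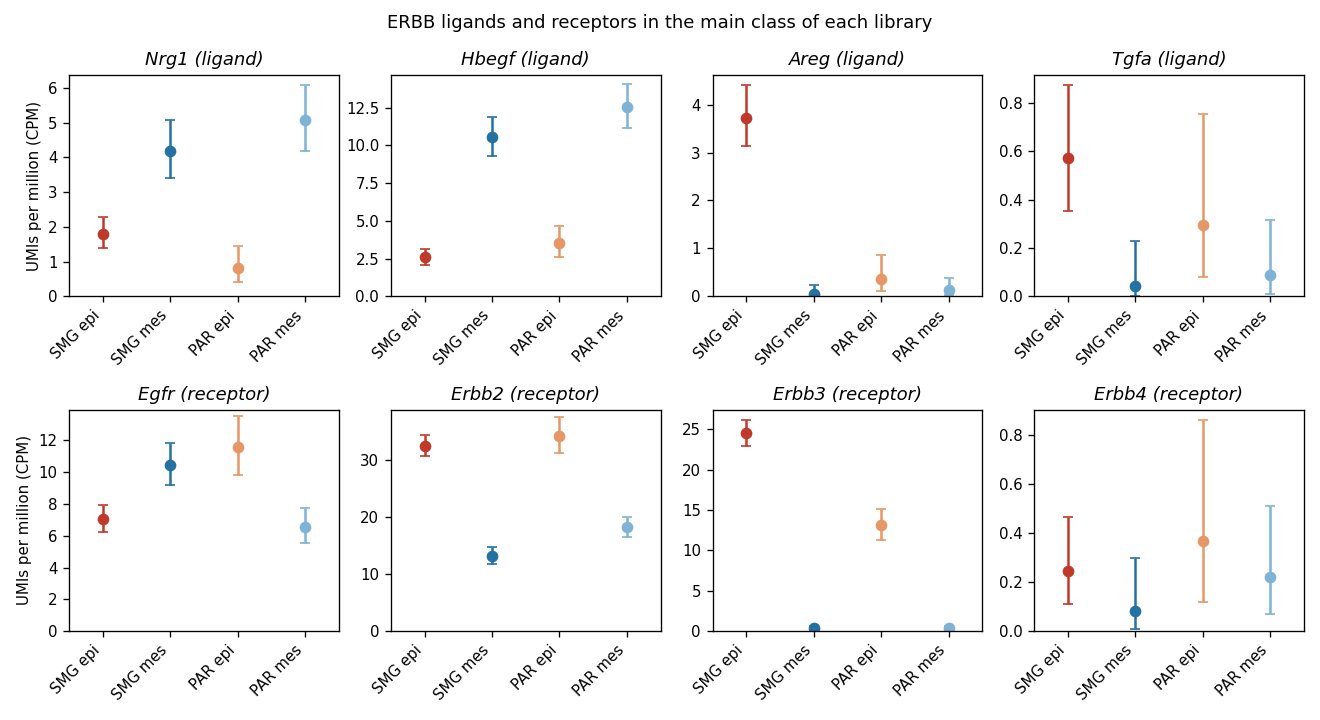
Level of each ERBB gene (CPM, linear axis from 0, own scale per panel) in epithelial-like (epi) and mesenchymal-like (mes) cells of the submandibular (SMG) and parotid (PAR) libraries, 1 library per point, with bars for the exact 95% Poisson interval. Nrg1 and Hbegf were higher in both mesenchymes, Erbb3 and Erbb2 in both epithelia, and Areg reached 3.72 CPM only in submandibular epithelium.

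Among the receptors, Erbb3 marked the epithelium of both glands, Erbb2 was present in both tissues with more in epithelium, Egfr changed its tissue order between the glands, and Erbb4 was barely detected. Erbb3, the receptor that takes up neuregulins, was at 24.5 CPM in submandibular epithelium (902 UMIs), 0.329 CPM in submandibular mesenchyme (8 UMIs), 13.1 CPM in parotid epithelium (178 UMIs) and 0.351 CPM in parotid mesenchyme (8 UMIs). Its epithelial level was 74.5 times the mesenchymal one in the submandibular gland (37.7 to 173) and 37.4 times in the parotid (18.6 to 88.0). Submandibular epithelium was 1.87 times above parotid epithelium (1.59 to 2.21), and the 2 mesenchymes were not distinguishable (1.07, 0.349 to 3.26). The few mesenchymal molecules were 1.34% and 2.67% of the epithelial level in the submandibular and parotid gland, beside 2.13% and 0.404% for Epcam. The part of carried-over epithelial RNA in these counts was not tested.

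The Erbb3 contrast was also present within single libraries. The parotid mesenchyme library held 122 epithelial-like cells, in which Erbb3 was at 16.8 CPM (18 UMIs) against 0.351 CPM in its own mesenchymal-like cells, a ratio of 47.8 (19.8 to 127). These 122 cells held Col3a1 at 62.4 CPM and summed mesenchymal markers at 326 CPM, against 4.94 and 91.3 CPM in the parotid epithelium library. The part of mesenchymal RNA or of doublets in their ratios was not tested. In the submandibular mesenchyme library 18 epithelial-like cells gave 3 Erbb3 UMIs (29.8 CPM), a ratio of 90.8 (15.5 to 378). In both libraries the interval of this ratio overlapped that between libraries. Hbegf in the parotid library was at 12.5 CPM in mesenchymal-like against 5.59 CPM in epithelial-like cells (2.24 times, 1.02 to 6.16), but in the submandibular library 1 epithelial UMI gave no distinguishable ratio (1.06, 0.188 to 41.9). Erbb2 in epithelial-like over mesenchymal-like cells was 3.77 (1.22 to 8.89) on 5 epithelial UMIs in the submandibular library and not distinguishable in the parotid (1.43, 0.939 to 2.099). Egfr was not distinguishable in the parotid library (1.28, 0.572 to 2.49) and had no UMI in the 18 submandibular epithelial-like cells. Nrg1 had 1 and 0 UMIs in the epithelial-like cells of the parotid and submandibular libraries, too few to tell the tissues apart.

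Erbb2, the shared partner receptor, was at 32.5 CPM in submandibular epithelium (1196 UMIs), 13.2 CPM in submandibular mesenchyme (321 UMIs), 34.3 CPM in parotid epithelium (465 UMIs) and 18.2 CPM in parotid mesenchyme (416 UMIs). The epithelia were alike (parotid over submandibular 1.05, 0.945 to 1.17) and both lay above the mesenchymes. The epithelium to mesenchyme ratio was 2.46 (2.18 to 2.79) in the submandibular and 1.88 (1.64 to 2.15) in the parotid gland. Parotid mesenchyme was 1.38 times above submandibular mesenchyme (1.19 to 1.603).

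Egfr, the receptor of Hbegf, Areg and Tgfa, was at 7.04 CPM in submandibular epithelium (259 UMIs), 10.4 CPM in submandibular mesenchyme (254 UMIs), 11.6 CPM in parotid epithelium (157 UMIs) and 6.57 CPM in parotid mesenchyme (150 UMIs). The order of tissues was opposite in the 2 glands. In the submandibular gland the mesenchyme was 1.48 times above the epithelium (1.24 to 1.77), and in the parotid the epithelium was 1.76 times above the mesenchyme (1.40 to 2.22). Parotid epithelium was 1.64 times above submandibular epithelium (1.34 to 2.01), and submandibular mesenchyme was 1.59 times above parotid mesenchyme (1.29 to 1.96). All of these are under 2-fold.

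Erbb4, a second neuregulin receptor, gave 9, 2, 5 and 5 UMIs in submandibular epithelium, submandibular mesenchyme, parotid epithelium and parotid mesenchyme, or 0.245, 0.0822, 0.369 and 0.219 CPM. No pair of neighbours in that order was distinguishable at this depth. The limit used for a count of 0, 3 UMIs, corresponds to 0.0815 CPM in the deepest class and 0.221 CPM in the shallowest.

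**Figure D2:**
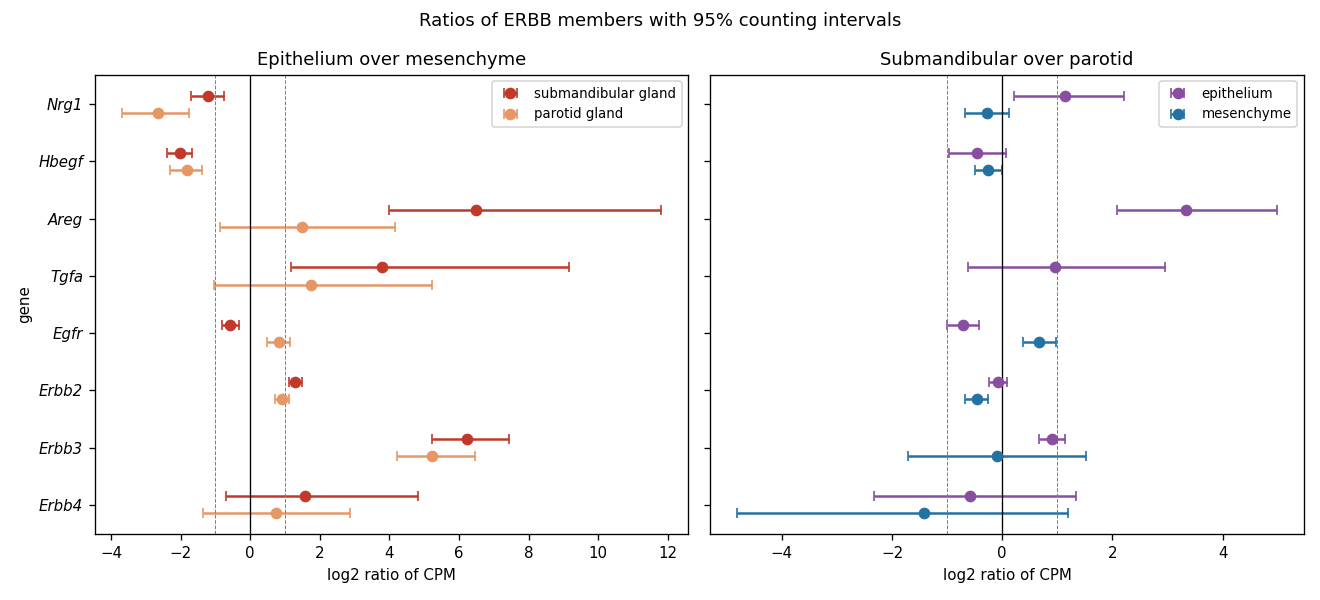
Ratio of CPM on a log2 axis for each gene, epithelium over mesenchyme by gland (left) and submandibular over parotid by tissue (right), as points with exact 95% conditional binomial intervals; dashed lines mark 2-fold. Erbb3 lay at 6.22 and 5.23 on the left, and the 2 Egfr points lay on opposite sides of 0 in both panels. Areg and Tgfa have no mesenchyme point on the right, where both libraries held at most 3 UMIs.

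A ratio of at least 2 was counted as a call, and the background was every gene with a mean of at least 5 CPM over the 4 classes. Of the 8 genes 4 passed that minimum (Hbegf, Egfr, Erbb2 and Erbb3). In the submandibular gland 2 of these 4 were called higher in epithelium (Erbb2 and Erbb3), beside 8.82% of 9690 background genes. One (Hbegf) was called higher in mesenchyme, beside 18.9%. In the parotid gland 1 of 4 was called higher in epithelium (Erbb3), beside 8.18% of 9688 genes, and 1 (Hbegf) higher in mesenchyme, beside 11.2%. Erbb2, at 1.88 in the parotid gland, was just outside the 2-fold limit. Between the glands none of the 4 was called in epithelium, where 2.74% of 9641 genes were called higher in submandibular and 5.01% higher in parotid cells. None was called in mesenchyme either, where the background was 6.26% and 4.05% of 9648 genes. The median log2 ratio over all background genes was -0.20 for submandibular epithelium over mesenchyme and between -0.06 and 0.09 in the other 3 comparisons. The median over the 8 members was 1.44 for epithelium over mesenchyme in the submandibular gland and 0.86 in the parotid. It includes the 4 members under the minimum, so it is not a like comparison with the background. The 4 members over the minimum were at -2.03 (Hbegf), -0.57 (Egfr), 1.30 (Erbb2) and 6.22 (Erbb3) in the submandibular gland. In the parotid they were at -1.82, 0.82, 0.91 and 5.23.

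Shares of cells followed the summed levels. After every cell was thinned to 3000 UMIs, 6.84% of submandibular epithelial-like cells (6.02 to 7.73) held an Erbb3 UMI, against 0.0981% of submandibular mesenchymal-like cells (0.0267 to 0.251), 3.40% of parotid epithelial-like cells (2.59 to 4.38) and 0.166% of parotid mesenchymal-like cells (0.0609 to 0.361). Thinning left out 13, 147, 149 and 96 cells of these classes, and the unthinned shares were 20.1%, 0.189%, 8.47% and 0.215%. None of 106 submandibular and 69 parotid erythroid-like cells, which should lack the receptor, held an Erbb3 UMI after thinning, which allows shares of up to 2.83% and 4.35%, and unthinned 1 parotid cell held 1. With so few erythroid-like cells these limits are too wide to tell a low share from background, and the parotid epithelial-like share lies below the parotid limit as well. Their median depth was 17195 and 16904 UMIs, beside 9766 and 6931.5 in the epithelial-like cells. At this depth most epithelial cells show no UMI of any receptor, so the shares are no count of the cells that express one.

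For Erbb2 the thinned shares were 10.1% and 9.91% in submandibular and parotid epithelium and 3.95% and 5.39% in the mesenchymes. For Hbegf they were 0.692% and 1.11% against 3.09% and 3.12%. Unthinned, Erbb2 was in 27.7% and 20.9% of the epithelial-like cells and in 7.22% and 10.4% of the mesenchymal-like cells. Cells with UMIs of both Erbb2 and Erbb3 numbered 19 of 3466 in submandibular epithelium, where the product of the single shares gives 23.9, and 8 of 1705 in parotid epithelium, where it gives 5.75. Egfr and Erbb3 were found together in 2 submandibular cells (product 5.06) and in 3 parotid cells (product 1.87). With so few cells nothing is read from these pairs.

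Within the epithelium, Erbb3, Egfr and Nrg1 differed between clusters, and Areg sat almost wholly in 1 cluster of each gland. Clusters were made without the ERBB genes and without the pathway genes listed further on. They are grouped here by Sox10, a transcription factor gene of the salivary end bud, and by Krt19, a keratin gene of luminal and stratified epithelial cells. This grouping was chosen after the values had been seen. Epithelial-like clusters of at least 25 CPM of Sox10 were called Sox10-rich. They were clusters 1, 2, 4 and 9 of submandibular epithelium (1792 cells) and 3 and 6 of parotid epithelium (374 cells). Submandibular clusters 3 and 7 (136 and 130 cells) also passed that limit, at 49.7 and 61.1 CPM, but were left out as unnamed. The cluster just inside the limit was at 28.4 CPM and the one just outside at 20.3 CPM (submandibular cluster 0, 462 cells). Among end bud, luminal duct and basal marker lists, cluster 0 scored highest for end bud (0.540). It counts among the other clusters in all ratios below, which therefore depend on the limit. The cluster with the most Krt19 was submandibular cluster 6 (307 cells, 341 CPM) and parotid cluster 2 (81 cells, 633 CPM). The remaining 1380 and 1399 cells are called the other clusters, and each of their clusters had the basal keratin gene Krt14 among its 10 leading genes.

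Erbb3 was at 29.0 CPM in the Sox10-rich, 11.1 CPM in the other and 40.1 CPM in the Krt19-highest clusters of the submandibular gland, and at 19.6, 8.81 and 52.6 CPM in the parotid. It was thus lowest in the other clusters of both glands. Sox10-rich clusters held 2.60 times the level of the other clusters in the submandibular gland (2.14 to 3.19) and 2.22 times in the parotid (1.58 to 3.11). Single clusters in the submandibular gland ranged from 22.3 to 31.7 CPM among the Sox10-rich and from 7.33 to 13.3 CPM among the other clusters. The lack of overlap follows from the chosen limit. Cluster 0, just outside it, was at 11.7 CPM, and with it on the Sox10-rich side the ranges overlap. The unnamed clusters 3 and 7, outside these sets, were at 13.1 and 34.0 CPM, so cluster 3 lay within the range of the other clusters. In the parotid the ranges were 16.03 to 22.4 CPM and 0 to 16.8 CPM and overlapped, where the 0 was the cluster of 91 cells with almost no mitochondrial RNA.

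Egfr had the opposite order. It was at 4.18 CPM in the Sox10-rich and 12.3 CPM in the other submandibular clusters, and at 3.67 and 12.9 CPM in the parotid ones. The other clusters therefore held 2.94 times the Sox10-rich level in the submandibular gland (2.25 to 3.86) and 3.51 times in the parotid (1.94 to 6.98). Egfr in the Krt19-highest cluster was 9.77 CPM in the submandibular and 35.7 CPM in the parotid gland, 3.65 times higher in the parotid (1.93 to 6.78).

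Epithelial Nrg1 was a feature of the other clusters of the submandibular gland. It was at 4.74 CPM there (52 of 66 UMIs) against 0.566 CPM in the Sox10-rich clusters, a ratio of 8.37 (4.49 to 16.8), and clusters 0, 5 and 10 each lay between 3.82 and 5.59 CPM. The same comparison in the parotid gland gave 0.921 CPM (9 UMIs) against 0.612 CPM (2 UMIs), which was not distinguishable (1.51, 0.311 to 14.3). Between the glands the other clusters differed 5.14-fold in Nrg1 (2.51 to 11.9). In the submandibular epithelium the ligand Nrg1 and its receptor Erbb3 thus had opposite orders between these groups of clusters. The Nrg1 level of the other submandibular clusters (3.54 to 6.22 CPM) overlapped that of submandibular mesenchymal-like cells (4.19 CPM, 3.42 to 5.09). The higher mesenchymal level of the summed classes therefore does not hold against these clusters.

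Areg was at 40.1 CPM in submandibular cluster 6 (115 of 137 UMIs, or 83.9% of the molecules in 8.82% of the cells), against 1.09 CPM in the other clusters, a ratio of 36.7 (20.2 to 73.1). All 5 parotid Areg UMIs were in the corresponding Krt19-highest cluster (9.39 CPM), and the other parotid epithelial-like cells held none. In both glands that cluster was also the epithelial cluster with the most Erbb2 and Erbb3. Erbb2 reached 62.8 CPM in the submandibular cluster, 1.88 times the other clusters (1.56 to 2.25), and 95.7 CPM in the parotid one, 2.91 times (2.12 to 3.92). Hbegf was higher there as well, 2.35 times in the submandibular (1.25 to 4.28) and 3.67 times in the parotid gland (1.10 to 9.75). The leading genes differed between the glands. They were Krt18, Cldn3 and Cldn4 with Anxa1 in the submandibular cluster and Gabrp, Krt7, Cldn4 and Upk3bl in the parotid one, where periderm markers scored highest.

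**Figure D3:**
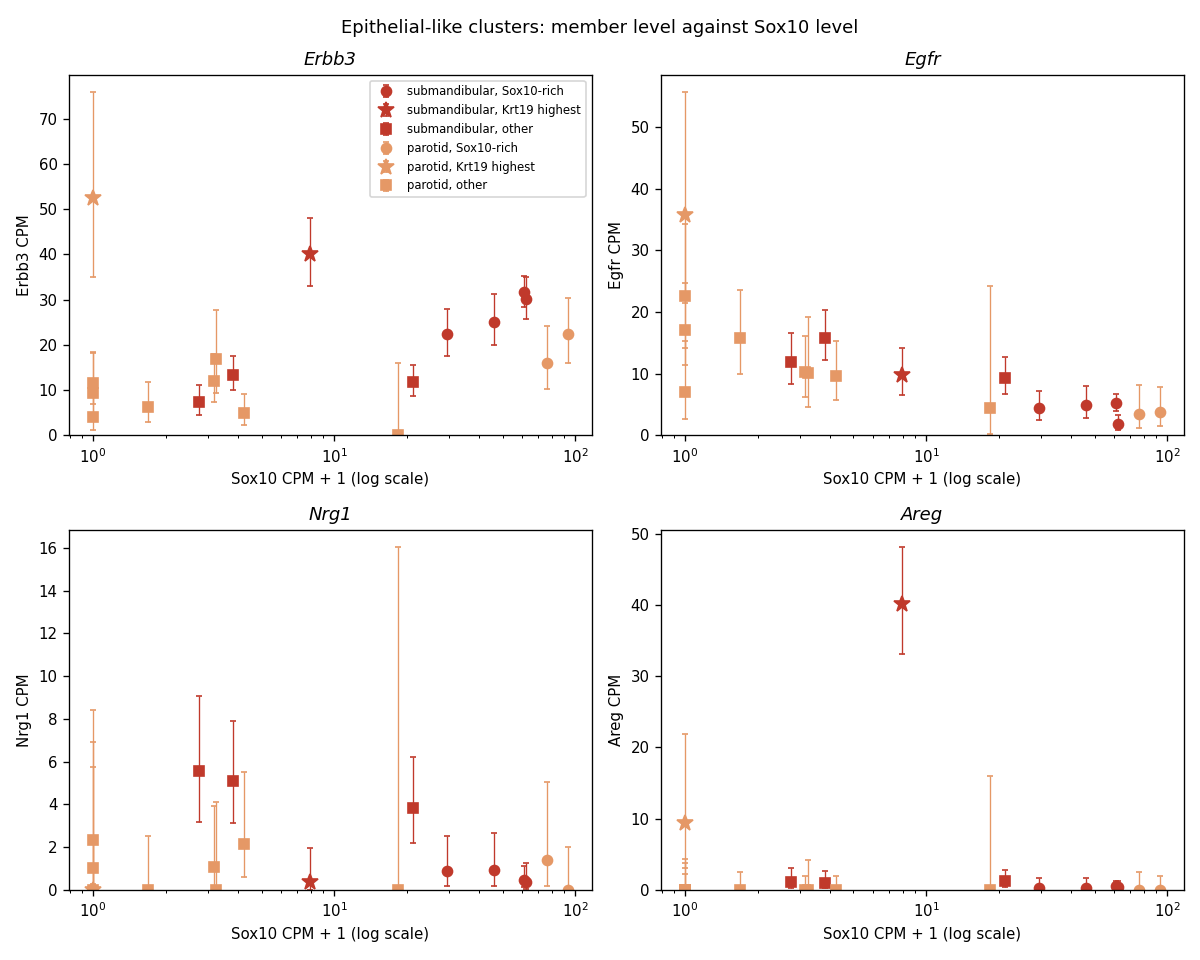
Level of Erbb3, Egfr, Nrg1 and Areg (CPM, linear axis) in each epithelial-like cluster against its Sox10 level (CPM plus 1, log axis), red for submandibular and orange for parotid, circles for Sox10-rich clusters, stars for the cluster with the most Krt19 and squares for the rest, with 95% Poisson bars. Summed over clusters, Erbb3 was higher and Egfr lower in the Sox10-rich than in the other clusters of both glands, and Areg reached 40.1 CPM in 1 cluster.

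Within the Sox10-rich and the other clusters, the glands stood closer in Erbb3 and Egfr than over the whole epithelium, although these differences of ratios were not tested. Sox10-rich clusters made up 51.5% of the submandibular and 20.2% of the parotid epithelial-like cells, and the other clusters 39.7% and 75.5%. In the other clusters Egfr was the same in both glands within counting error (12.3 and 12.9 CPM, parotid over submandibular 1.05, 0.816 to 1.35), as it was in the Sox10-rich ones (4.18 and 3.67 CPM, 0.879, 0.439 to 1.61). Erbb3 was 1.48 times higher in the submandibular than in the parotid Sox10-rich clusters (1.14 to 1.94) and 1.26 times in the other clusters (0.9505 to 1.68), against 1.87 over the whole class. Erbb2 differed in neither of these sets (0.993, 0.798 to 1.25, and 1.02, 0.874 to 1.19). The Krt19-highest clusters went the other way. There parotid over submandibular was 1.525 for Erbb2 (1.095 to 2.092) and 3.65 for Egfr (1.93 to 6.78), against 1.05 and 1.64 over the whole class. Erbb3 was not distinguishable there (1.31, 0.8345 to 1.995). Hbegf, which did not differ over the whole epithelium, was 2.81 times higher in the parotid Sox10-rich clusters (1.53 to 4.96). The part of the cluster shares in the gland differences of Erbb3 and Egfr was not tested.

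Within the mesenchyme, Nrg1 was concentrated in the parotid gland and spread in the submandibular gland. Parotid clusters 14 and 15 were at 24.2 and 27.2 CPM and held 36 and 44 of the 116 Nrg1 UMIs of the mesenchymal-like cells, in 8.21% and 8.08% of the cells. A neighbouring cluster that stayed unnamed, cluster 16 with 193 cells, was at 22.2 CPM. Together these 798 cells held 99 Nrg1 UMIs (20.3 to 30.4 CPM) against 36 UMIs (1.28 to 2.53 CPM) in 3110 cells of the other 10 mesenchymal-like clusters. These 3 clusters were pooled because their Nrg1 was seen to be high, so the gap between the intervals follows from that choice. All 3 clusters had Ebf1 and Epha3 among their leading genes, with the neurofilament gene Nefl. Ebf1 is not particular to them. It was also a leading gene of parotid clusters 5, 11 and 12, with Nrg1 at 2.04, 4.58 and 1.01 CPM, and of submandibular cluster 8 (3.59 CPM). Epha3 was also a leading gene of submandibular cluster 11 (5.60 CPM). Adding cluster 16 to the class moved parotid mesenchymal Nrg1 from 5.08 to 5.70 CPM. In the submandibular mesenchyme the highest cluster was cluster 3, at 14.9 CPM on 8 UMIs, and the largest clusters, 0 and 1, were at 5.43 and 4.86 CPM.

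Hbegf and Egfr also varied within the mesenchyme. Hbegf ranged from 3.14 to 20.2 CPM over the submandibular mesenchymal-like clusters and from 2.15 to 24.7 CPM over the parotid ones, with the maximum in parotid cluster 9, a cluster led by Osr2, Fibin and Lhx8. Egfr ranged from 3.73 to 19.6 CPM in the submandibular gland, where cluster 9, led by Igf1 and Lum, was highest, and from 0 to 15.5 CPM in the parotid. Erbb2 was more even, from 5.59 to 22.0 CPM and from 14.2 to 23.0 CPM. Across 23 mesenchymal clusters of both glands the Pearson correlation of Hbegf with Egfr was -0.153 and that of Nrg1 with Hbegf 0.327, as descriptions of clusters that share libraries and depth.

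**Figure D4:**
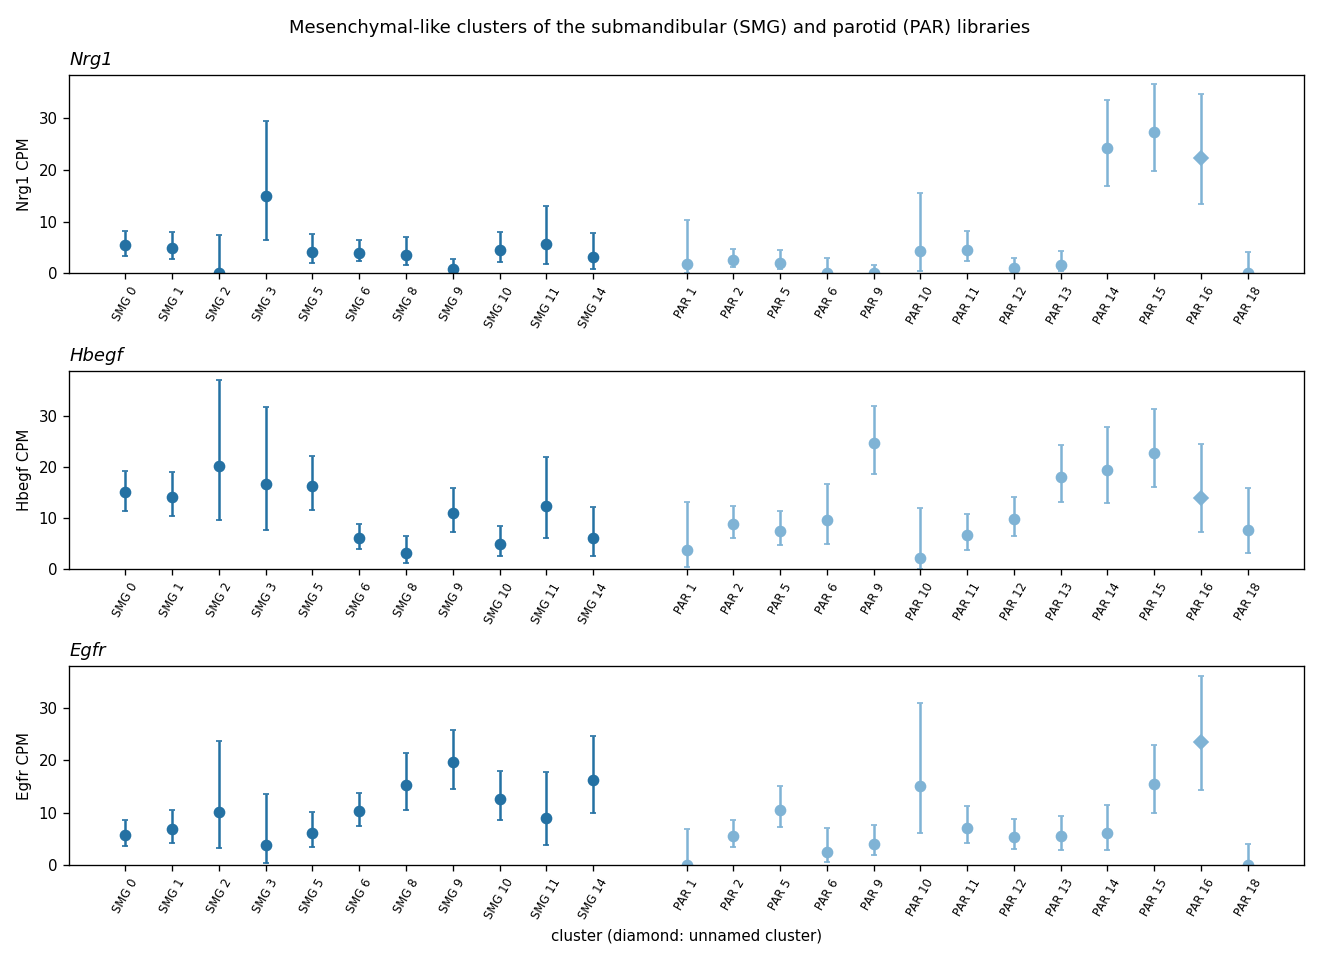
Level of Nrg1, Hbegf and Egfr (CPM, linear axis from 0) in each mesenchymal-like cluster of the submandibular (SMG, dark) and parotid (PAR, light) mesenchyme libraries, with 95% Poisson bars; the diamond is the unnamed parotid cluster 16. Parotid clusters 14, 15 and 16 stood above all others in Nrg1, at 22.2 to 27.2 CPM.

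Other cell classes in the mesenchyme libraries carried ERBB genes as well. The neural crest and glial-like class, a lineage that forms the gland's nerves and ganglion, held Erbb3 at 62.1 CPM in the submandibular library (94 UMIs in 146 cells) and 58.9 CPM in the parotid library (8 UMIs in 16 cells). Skeletal muscle-like cells held it at 38.5 CPM (66 UMIs in 130 cells) and 43.6 CPM (158 UMIs in 234 cells). Both classes were above the mesenchymal-like cells of their own library, which were at 0.329 and 0.351 CPM. Over the whole kept mesenchyme library, with these classes included, the epithelium to mesenchyme log2 ratio of Erbb3 fell to 2.14 in the submandibular and 1.05 in the parotid gland, from 6.22 and 5.23.

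Endothelial-like cells held Hbegf at 15.4 CPM (9.42 to 23.8, 20 UMIs in 139 cells) in the submandibular and 25.4 CPM (14.5 to 41.2, 16 UMIs in 63 cells) in the parotid library. The first interval overlapped that of the mesenchymal-like cells and the second lay above it. The parotid endothelial-like cluster also had haemoglobin genes among its leading genes. Erbb3 was at 0 in both endothelial-like classes (upper limits 2.85 and 5.85 CPM), and Egfr at 1 and 0 UMIs. Among the cell classes Erbb4 had its highest level in the parotid skeletal muscle-like cells (6 UMIs, 1.66 CPM), and Tgfa in 56 submandibular chondrogenic-like cells (4 UMIs, 11.3 CPM). Nrg1 gave no UMI in neural crest and glial-like or endothelial-like cells of either library. The upper limits were 2.44 and 2.85 CPM in the submandibular library, below its mesenchymal-like level of 4.19 CPM. In the parotid library they were 27.1 and 5.85 CPM, above the mesenchymal-like 5.08 CPM, so a lower level is not shown there.

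**Figure D5:**
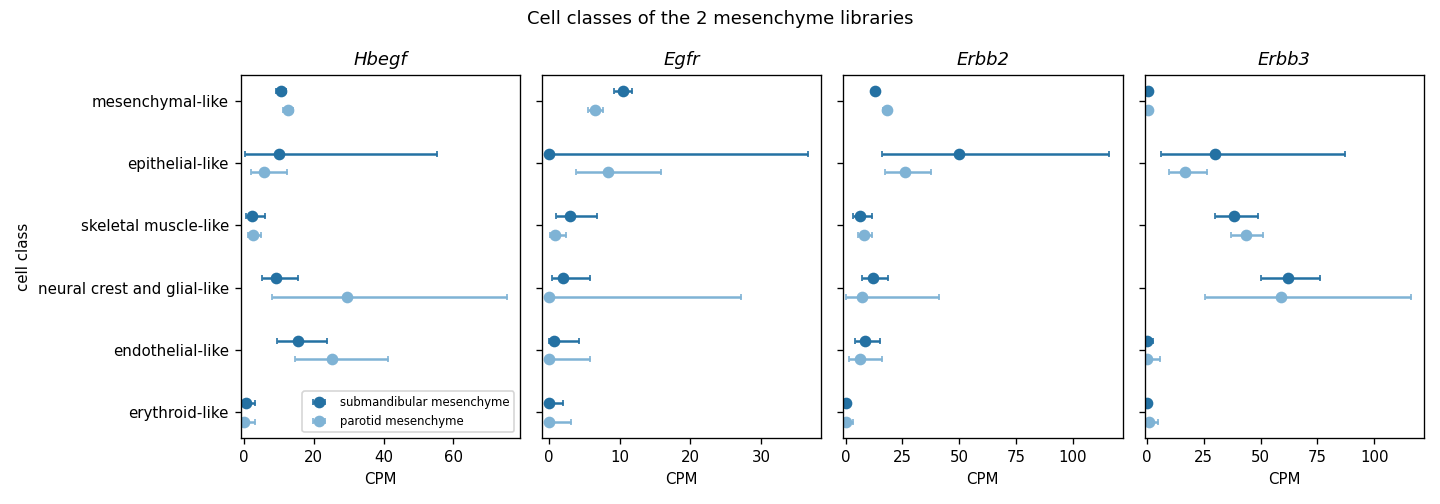
Level of Hbegf, Egfr, Erbb2 and Erbb3 (CPM, linear axis, own scale per panel) in 6 cell classes of the submandibular (dark) and parotid (light) mesenchyme libraries, with 95% Poisson bars. Erbb3 was at 62.1 and 58.9 CPM in neural crest and glial-like cells and near 0 in mesenchymal-like cells.

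Over all 55 clusters of at least 30 cells, the 3 genes most like each member in log2(CPM + 10) were listed for the 6 members with at least 100 UMIs. Nrg1 was most like Car11 (Pearson r 0.75), Nefm (0.71) and Epha3 (0.69). Hbegf was most like Fyn, Pgm1 and Rab11fip5 (0.79 each), and Areg like Cldn23 (0.78), Elf5 (0.78) and S100a14 (0.75). Cldn23 encodes a tight junction claudin and Elf5 an epithelial transcription factor. Egfr was most like Ccdc181 (0.67), Fpgt (0.66) and Hdac6 (0.66), Erbb2 like Aig1, Gpc4 (0.82 each) and Fam213a (0.81), and Erbb3 like Tspan12 (0.81), Tnfrsf12a (0.80) and Tmem123 (0.785). The lists depended on the measure: 7 of the 18 genes stayed with log2(CPM + 1) and 4 with Spearman's coefficient. Over the 19 epithelial clusters Egfr and Erbb2 had r 0.651, Erbb2 and Erbb3 0.549, and Egfr and Erbb3 -0.023.

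The wider pathway was read from a list of 60 further genes, of which 45 passed the level minimum. None of the 7 further ligands passed it. The most counted of these were Nrg2, with 84 UMIs (3.45 CPM) in submandibular mesenchyme, 45 in submandibular epithelium, 22 in parotid mesenchyme and 10 in parotid epithelium, and Egf, with 28, 19, 16 and 6 UMIs in the same order. Nrg3 was at 25 UMIs in parotid mesenchyme (1.10 CPM) and at 1, 0 and 1 UMIs in submandibular mesenchyme, submandibular epithelium and parotid epithelium. Ereg gave 14 of its 15 UMIs in submandibular epithelium. These 4 further ligands were picked after their counts had been seen.

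In the submandibular gland 10 of the 45 genes were called higher in epithelium and 9 in mesenchyme, with a median log2 ratio of -0.16. Of the background genes 8.82% and 18.9% were called in these directions, or 27.7% in either. Higher in epithelium were Cd9, a tetraspanin known to associate with membrane-anchored Hbegf (9.31 times), Myc (6.96 times), the heparan sulphate carrier Sdc4 (6.95 times) and the ETS factor gene Etv5 (5.996 times). Higher in mesenchyme were Nrp1 (245 times), the protease gene Adam19, whose product can cut neuregulins (81.3 times), Lrig3 (5.999 times) and the immediate early gene Fos (4.89 times). Of 12 measured inhibitors and feedback genes 3 were called higher in epithelium (Dusp6, Spry1 and Spry2) and 2 higher in mesenchyme (Lrig3 and Socs5), beside the same 8.82% and 18.9%. Spry1, Spry2 and Socs5 are named after their values were seen. The counts in mesenchyme, 9 of 45 and 2 of 12, are near the background share, so nothing is read from them. Dusp6, the Spry genes, Etv4 and Etv5 also respond to fibroblast growth factor signalling, so they are not specific to ERBB receptors.

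In the parotid gland 8 of 45 were called higher in epithelium and 6 in mesenchyme (median -0.05), beside 8.18% and 11.2% of the background (19.4% in either direction). Cd9 (8.50 times), Etv5 (7.31 times), Etv4 (5.82 times) and Errfi1, an inhibitor of EGFR kinase activity (4.85 times), led in epithelium. Nrp1 (58.1 times), Adam19 (15.4 times), Pik3r3 (4.06 times) and Ccnd1 (3.38 times) led in mesenchyme. Between the glands the calls were few. In epithelium 2 were higher in submandibular cells (Etv4 2.50 times, Dusp6 2.02 times), beside 2.74% of the background. Another 3 were higher in parotid cells (Nrp1 5.04 times on 13 against 7 UMIs, Lrig3 3.32 times, Fos 2.26 times), beside 5.01% (7.75% in either direction). These 3 were also called higher in mesenchyme than epithelium in both glands, and the summed mesenchymal markers were higher in the parotid than in the submandibular epithelial-like cells (91.3 against 23.6 CPM, with Col3a1 at 4.94 against 0.109 CPM). The part of mesenchymal RNA in these 3 calls was not tested. In mesenchyme 4 were higher in submandibular cells (Etv4 6.03 times, Adam19 3.34 times, Etv5 2.03 times, Pik3r1 2.02 times), beside 6.26% of the background. Sdc4 was higher in parotid cells (2.05 times), beside 4.05% (10.3% in either direction). Since 15 of the 60 genes were under the level minimum, these counts do not cover the whole list.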

How the data were processed

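Single-cell RNA was counted in 4 libraries, 1 per group. The deposited values are raw UMI counts, a whole number for each gene in each barcode. The authors used Cell Ranger 2.1.1 and the mm10 genome, per the submitters' processing notes; other settings are not given in the sources used here. The labels' protocols name 10x Chromium capture, pooled libraries and a NextSeq500 sequencer. The members and gene lists were chosen with earlier results of these data known.

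A barcode was kept when 500 or more genes were detected and mitochondrial RNA made up no more than 10% of its UMIs. No doublet caller was run; leaving out the 5% of barcodes with most UMIs was an alternative. Each library was clustered alone with scanpy 1.11.5 (2000 variable genes without ERBB and pathway genes, 30 principal components, 15 neighbours, Leiden resolution 0.8). A cluster took the class with the highest mean marker score where at least 3 of its markers were each detected in 25% of the cells and no other class had more markers among the 10 leading genes; periderm-like clusters counted as epithelial. Since names were rebuilt from markers, they may differ from the study's.

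UMIs were summed per class or cluster and divided by the class total (CPM). A call was a ratio of at least 2 among genes with a mean of at least 5 CPM. On simulated class sums with 200 genes changed 4-fold, 100.0% were recovered in each of the 4 comparisons. The simulation held counting error only and genes of at least 5 CPM. It therefore does not cover ratios near 2, sparser genes or spread between libraries. Scaling with TMM (edgeR 4.0.16), which moved the median log2 ratio of submandibular epithelium over mesenchyme by 0.28 and of the other 3 comparisons by -0.12 to 0.11, was an alternative, with other filters, clusterings and thinning depths. Named genes were all 8 members, up to 4 pathway genes each way per comparison with the largest ratios, and the 3 genes most like each member. The libraries held 32036980 UMIs in submandibular mesenchyme and 30815632 in parotid mesenchyme, besides the epithelial totals given above.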

Additional observations from a re-analysis of the deposited data

Results flagged for a closer look

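The difference of the Egfr log2 ratios of epithelium over mesenchyme, submandibular minus parotid, was -1.39 (interval from counting error -1.79 to -0.98). It was picked out because the ratio was below 0 in the submandibular gland (-0.57) and above 0 in the parotid (0.82). With 1 library per group this difference between the glands was not tested.

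The unnamed cluster 16 of parotid mesenchyme, which enters no comparison between tissues or glands, held Nrg1 at 22.2 CPM (13.4 to 34.7, 19 UMIs) and Egfr at 23.4 CPM (14.3 to 36.1, 20 UMIs). It was picked out because it lies outside the compared classes and both intervals lay above those of the parotid mesenchymal-like cells. Its 193 cells had a median of 4305 UMIs, and its Egfr level was the second highest of 55 clusters.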

How the results depend on the processing

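No paired analysis was possible because each group has 1 library and no result comes from a test. Of 30 log2 ratios of members, all kept their sign under each alternative that gave a value, except Erbb2 between the epithelia (-0.16 to 0.05), Tgfa between the epithelia (-0.35 to 1.80) and Erbb3 between the mesenchymes (-0.38 to 0.86), none of which was called. Clustering at resolution 0.4 or 1.6, the stricter barcode filter, a class from each cell's own score, equal weight of cells, an interval wholly above 2, and leaving out shared barcodes, the deepest barcodes or clusters under 1% mitochondrial UMIs moved no count of calls by over 1.5 times. The last of these, without clusters of low mitochondrial RNA, was chosen after seeing the data.

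TMM scaling called 1 member, Erbb3, higher in submandibular than parotid epithelium, and 2 pathway genes higher in each mesenchyme. Whole libraries, with or without the barcode filter, called 2 members higher in parotid epithelium (Erbb2 and Erbb3), and kept barcodes gave 2 pathway genes higher in each mesenchyme. With at least 50 CPM in the higher class 0 members were counted in either tissue of either gland, since none reaches that level. With no minimum level, but no ratio where both classes held at most 3 UMIs (Areg and Tgfa between the mesenchymes), 5 members were higher in submandibular epithelium and 2 in its mesenchyme, 3 in parotid epithelium and 2 in its mesenchyme, 2 in submandibular against parotid epithelium (Nrg1 and Areg) and 1 in parotid against submandibular mesenchyme (Erbb4). With a ratio of 1.5, 3 members were higher in parotid epithelium than mesenchyme, 1 in submandibular epithelium (Erbb3) and 1 in parotid epithelium (Egfr) between the glands, and 1 in submandibular mesenchyme (Egfr). The pathway counts then became 13 and 10 in parotid epithelium and mesenchyme, 6 and 6 between the epithelia, and 8 and 7 between the mesenchymes.

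Counted by shares with separate intervals, 1 member (Hbegf) was larger in submandibular mesenchyme and 2 at 5000 UMIs (with Egfr), and 2 members (Nrg1 and Hbegf) were larger in parotid mesenchyme and 1 at 2000 UMIs (Nrg1). Of 6 receptor pairs in the epithelia, 3 were seen above the product of shares, and 5 at 2000 UMIs. The highest class of all 8 members held at both other resolutions. Depth limits Areg, Tgfa and Erbb4, with at most 5 UMIs in each compared class outside submandibular epithelium.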
